A study of Mus musculus with 10 samples.

Results

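The genes described here are the platelet-derived growth factor (PDGF) ligands Pdgfa, Pdgfb, Pdgfc and Pdgfd and the PDGF receptors Pdgfra and Pdgfrb, chosen by gene symbol. They are 6 of the 55487 genes in the deposited count table. All 6 had enough counts to be tested, among 16565 genes that did. Polyadenylated RNA was sequenced from primary pancreatic tumours of C57BL/6J mice with the KPF genotype, which models pancreatic cancer and whose alleles the labels do not spell out. One group of 5 tumours is labelled Grem1 wild-type (Grem1wt/wt), and these mice were given the vehicle peanut oil. The other 5 tumours are labelled Grem1-deleted (Grem1∆/∆), and these mice were given tamoxifen at 100 mg/kg. Both treatments were daily for 5 days starting at 5 weeks of age, and mice of 6 to 12 weeks were used. Genotype and tamoxifen therefore cannot be told apart. The labels do not name the recombinase driver or the cells in which the deletion was induced.

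PDGF ligands are secreted dimers that bind and activate receptor tyrosine kinases on mesenchymal cells. PDGF-A and PDGF-B are cut inside the cell by furin-like convertases, whereas PDGF-C and PDGF-D carry a CUB domain that must be removed outside the cell before they can bind. The alpha receptor, encoded by Pdgfra, binds PDGF-A, PDGF-B and PDGF-C, and the beta receptor, encoded by Pdgfrb, binds mainly PDGF-B and PDGF-D. In many tissues Pdgfra marks fibroblasts, Pdgfrb marks pericytes and fibroblasts, and endothelial cells make PDGF-B, which recruits pericytes to vessels.

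Total estimated counts were between 10159891 and 18571519 per library. The samples are described as bulk tumour, while the extraction protocol speaks of sorted cells. Epithelial Epcam (172 to 605 CPM, counts scaled to the library total), fibroblast Col1a1 (1815 to 10434 CPM), endothelial Pecam1 (27.6 to 164 CPM) and macrophage Adgre1 (27.5 to 82.7 CPM) were found in every library. The same held for epithelial Cdh1 (177 to 637 CPM), fibroblast Dcn (147 to 1123 CPM), smooth muscle Acta2 (58.4 to 317 CPM) and platelet Pf4 (16.6 to 29.9 CPM). The acinar marker Prss2 ran from 1.65 to 3563 CPM. Labelled-deleted tumour 1 had the lowest scores of all 10 libraries for fibroblast, pericyte, smooth muscle, endothelial, epithelial and mesothelial markers. The name of its count column lacks a number that its title has, and it was matched by the rest of the name, which no other title shares and which its own deposited file also carries. Labelled-deleted tumour 2 had the highest score for intestinal markers, with Apoa4 at 897 CPM against at most 4.72 CPM elsewhere. The targeted gene Grem1 was 3.97 to 43.1 CPM in wild-type tumours and 6.83 to 110.1 CPM in labelled-deleted tumours, with a log2 fold change of 1.08 (SE 0.79, adjusted p = 0.761). Counts per gene do not show a deleted exon, so the groups are named by their labels alone. In bulk tissue, fewer cells of a type and less RNA per cell cannot be told apart.

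All 6 genes were expressed in all 10 tumours. Levels of different genes were compared per kilobase (kb) of merged annotated exons. Pdgfrb had the highest mean level, 35.9 ± 10.96 CPM per kb (SD, n = 10), and Pdgfb followed with 30.9 ± 15.04 CPM per kb. Pdgfa stood at 17.2 ± 5.49, Pdgfra at 15.7 ± 5.62 and Pdgfc at 12.5 ± 3.99 CPM per kb. Pdgfd was the lowest at 4.82 ± 1.53 CPM per kb, and it was in last place in 10 of 10 tumours. Only 2 of the 5 neighbouring steps in this order exceeded the spread between tumours.

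The step from Pdgfb down to Pdgfa was 0.74 ± 0.47 on the log2 scale and was seen in 9 of 10 tumours (exact two-sided paired permutation test, p = 0.00391, adjusted over 5 steps 0.00977). The step from Pdgfc to Pdgfd was 1.40 ± 0.78 and was seen in 10 of 10 tumours (exact paired permutation test, p = 0.00195, the smallest this test can give, adjusted 0.00977). Pdgfrb was above Pdgfb in 6 of 10 tumours, by 0.35 ± 1.02 (exact permutation, adjusted p = 0.427). Pdgfa was above Pdgfra in 5 of 10 tumours, by 0.14 ± 0.88 (exact permutation, adjusted p = 0.621). Pdgfra was above Pdgfc in 6 of 10 tumours, by 0.30 ± 0.59 (exact permutation, adjusted p = 0.244). The order of the first 2 genes is therefore not fixed by these data. It turned over, with Pdgfb first, when the longest transcript was used as the length and when labelled-deleted tumours 1 and 2 were left out.

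**Figure D1:**
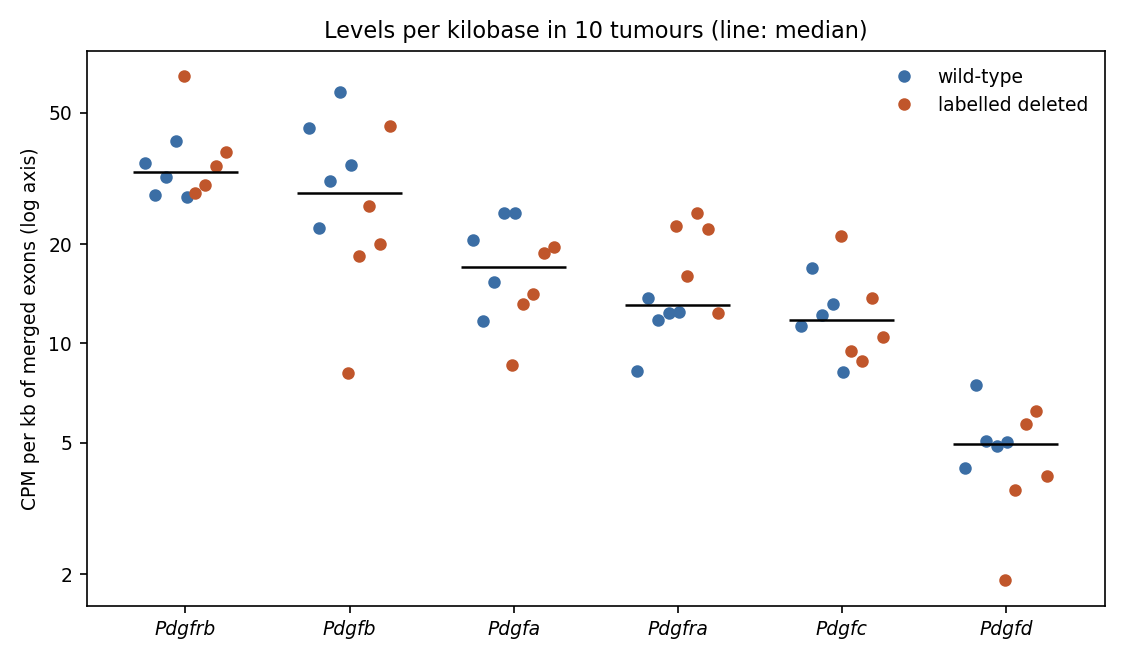
Level of each gene per kilobase of merged exons (log axis) in the 5 wild-type (blue) and 5 labelled-deleted (orange) tumours, in order of mean log2 level, with the median as a line. Pdgfd lies below the other genes, between 1.92 and 7.51 CPM per kb, and Pdgfb spans the widest range, from 8.13 to 57.8 CPM per kb.

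In the comparison of labelled-deleted with wild-type tumours, edgeR's quasi-likelihood test placed 0 of the 6 genes under an adjusted p of 0.05. Over the whole table it called 0 of 16565 genes (0%). At an unadjusted p under 0.05 there was 1 of the 6, Pdgfra, where 983 of all genes (5.93%) lay under that value. DESeq2 called 7 genes of 31198 and 0 of the 6 members. No member separated the groups completely, as 154 of all genes (0.930%) did. Of the 6, 3 were nominally higher (Pdgfc, Pdgfra and Pdgfrb) and 3 lower (Pdgfa, Pdgfb and Pdgfd), with a median log2 fold change of -0.13 against 0.03 over all genes tested. Of all genes 55.1% were nominally higher and 44.9% lower. The split of the 6 was 1 higher and 5 lower without labelled-deleted tumour 1.

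Pdgfra, the alpha receptor of fibroblasts and other mesenchymal cells, had the smallest p of the family. It (ENSMUSG00000029231) lies on the plus strand of chromosome 5 from 75152292 to 75198215 (GRCm38, also called mm10). The wild-type tumours held 82.5, 137, 118, 124.1 and 124.5 CPM. The labelled-deleted tumours held 227, 160.1, 249.5, 223 and 124.3 CPM. In labelled-deleted tumours 1 to 4 the level was above that of every wild-type tumour, while labelled-deleted tumour 5 lay within the wild-type range, so the groups overlapped by that 1 library. Means were 117 ± 20.7 and 197 ± 52.4 CPM (SD, n = 5 each).

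The log2 fold change of Pdgfra was 0.75 (SE 0.20), a 1.68-fold difference, with an unadjusted p of 0.00402 and an adjusted p of 0.759 over all genes (edgeR). Only 31 of 16565 genes had a smaller unadjusted p. The difference therefore did not pass the test over all genes, and adjusted p under the other settings ran from 0.349 with DESeq2 to 0.9995 with the tumour ID number as a block. Leaving out any 1 library kept the log2 fold change of Pdgfra between 0.64 and 0.87, and the value was 0.76 with both labelled-deleted tumours 1 and 2 removed. Of the 10 fibroblast markers 2 were nominally higher, 0 passed the test, and their median log2 fold change was -0.16. With labelled-deleted tumours 1 and 2 removed, 6 of the 10 were nominally higher and the median was 0.01. In labelled-deleted tumour 1 Pdgfra was 0.97 above the wild-type mean on the log2 scale while the fibroblast score, the mean log2 CPM of the 10 markers, was 1.21 below it, a difference of -1.21. In labelled-deleted tumour 3 both were higher, by 1.11 and 0.52. Markers of mesothelium, the lining of the abdominal cavity, were nominally higher for 7 of 8 members (0 passed, median 0.57). That score was 1.35 and 1.27 above the wild-type mean in labelled-deleted tumours 3 and 4. In labelled-deleted tumour 1, where Pdgfra was 0.97 above its wild-type mean, the mesothelial score differed from its own by -1.41. The mesothelial count was 5 of 8 with a median of 0.20 when labelled-deleted tumour 3 was left out. The part of mesothelium in the Pdgfra values was not tested.

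Pdgfrb, the beta receptor, was highest in 1 labelled-deleted library and within the wild-type range in the other 4. It (ENSMUSG00000024620) lies on the plus strand of chromosome 18 from 61045150 to 61085061. The wild-type tumours held 193, 154.0, 175, 225 and 152.5 CPM. The labelled-deleted tumours held 353, 156, 165.5, 188 and 208 CPM. Labelled-deleted tumour 1 was the highest of all 10. The log2 fold change was 0.25 (SE 0.22, adjusted p = 0.789 in edgeR), and it was -0.01 without labelled-deleted tumour 1.

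That library with the most Pdgfrb had little of one pericyte marker and much of another. Rgs5, a regulator of G-protein signalling in pericytes, was 22.3 CPM there against 96.3 to 370 CPM in the other 9. Cspg4, the NG2 proteoglycan of pericytes and some tumour cells, was 207 CPM there against 28.5 to 95.0 CPM in the others. Its pericyte score was 1.17 below the wild-type mean, a difference of -1.17 on the log2 scale, whereas Pdgfrb was 0.99 above its own. Over the 10 tumours Pdgfrb and the pericyte score had a Pearson r of -0.45 (permutation p = 0.175, adjusted 0.225) and a Spearman rho of 0.26 (permutation p = 0.468). Over the 9 tumours without labelled-deleted tumour 1 the r was 0.74 (exact permutation p = 0.0230, adjusted 0.189), so the sign rests on that library.

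Pdgfb encodes the B chain, which binds both receptors, and it varied most between tumours. The gene (ENSMUSG00000000489) is on chromosome 15, minus strand, between 79995874 and 80014977. The wild-type tumours held 187, 93.0, 129, 240.4 and 144 CPM, and the labelled-deleted tumours held 33.8, 76.8, 108, 83.4 and 189 CPM. Labelled-deleted tumours 1, 2 and 4 were below every wild-type tumour, and labelled-deleted tumour 5 was as high as wild-type tumour 1, so the groups overlapped. The highest library held 7.11 times the lowest. The SD of its log2 CPM over the 10 tumours, 0.82, was higher than that of 88.1% of all genes tested, and the median gene had 0.30.

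Mean Pdgfb was 159 ± 56.8 CPM in wild-type and 98.3 ± 57.5 CPM in labelled-deleted tumours (SD, n = 5). The log2 fold change was -0.69 (SE 0.41, adjusted p = 0.759 in edgeR), which was within the spread between tumours. It was -0.48 without labelled-deleted tumour 1, -0.49 without wild-type tumour 4, and -1.07 without labelled-deleted tumour 5. All 10 endothelial markers, from cells that make PDGF-B, were nominally lower as well (0 passed, 0 with an unadjusted p under 0.05, median -0.42). The endothelial count was 9 of 10 with limma-voom and 8 of 10 with the tumour ID number as a block. All 8 macrophage markers were nominally lower (0 passed, 3 with an unadjusted p under 0.05, median -0.52). That count was 7 of 8 under several alternatives, among them total count scaling, the tumour ID block and leaving out labelled-deleted tumour 1. Epithelial markers were nominally lower for 9 of 10 (0 passed, 3 with an unadjusted p under 0.05, median -0.39). Over all genes tested, 5.93% had an unadjusted p under 0.05. Without labelled-deleted tumours 1 and 2 the endothelial count was 7 of 10 with a median of -0.07, the macrophage count 7 of 8 with -0.36, and the epithelial count 10 of 10 with -0.29. Without labelled-deleted tumour 1 alone the epithelial count was 7 of 10 with a median of -0.20. The part of these cell types in the Pdgfb values was not tested. Platelets also carry PDGF, and of their 8 markers 3 had enough counts to be tested, with 2 nominally higher, 0 passing and a median of 0.13.

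Pdgfa encodes the A chain, which acts through the alpha receptor. The gene (ENSMUSG00000025856) is on chromosome 5, minus strand, between 138976014 and 138997370. The wild-type tumours held 64.1, 36.5, 47.9, 77.7 and 77.5 CPM, and the labelled-deleted tumours held 26.8, 40.9, 44.2, 58.5 and 61.1 CPM. Labelled-deleted tumour 1 was the only one below all wild-type tumours. Means were 60.7 ± 18.2 and 46.3 ± 14.0 CPM (SD, n = 5), and the log2 fold change was -0.39 (SE 0.26, adjusted p = 0.759 in edgeR). The log2 fold change of Pdgfa was -0.25 without labelled-deleted tumour 1 and -0.15 without tumours 1 and 2 of that group. Of the exon bases of Pdgfa, 26.1% are shared with the antisense gene 6330403L08Rik on the opposite strand, which stood at 18.7 ± 3.43 CPM in wild-type and 20.9 ± 5.67 CPM in labelled-deleted tumours. The sources used here do not say if reads were counted by strand, and without strand reads from the shared bases cannot be told apart.

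Pdgfc (ENSMUSG00000028019) encodes a CUB-domain ligand of the alpha receptor and lies on the plus strand of chromosome 3 from 81036416 to 81214040. The wild-type tumours held 57.5, 85.9, 62.3, 67.0 and 41.6 CPM, and the labelled-deleted tumours held 107.7, 48.4, 45.0, 69.8 and 53.1 CPM. Labelled-deleted tumour 1 was the highest of all, and the other 4 lay inside the wild-type range. The log2 fold change was 0.04 (SE 0.26, adjusted p = 0.971 in edgeR), and it was -0.22 without labelled-deleted tumour 1 and -0.07 without wild-type tumour 5. The direction is therefore not settled by these libraries.

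Pdgfd (ENSMUSG00000032006) encodes the CUB-domain ligand of the beta receptor and lies on the plus strand of chromosome 9 from 6168584 to 6378850. The wild-type tumours held 13.3, 23.7, 15.9, 15.4 and 15.9 CPM, and the labelled-deleted tumours held 6.05, 11.4, 18.1, 19.7 and 12.6 CPM. Labelled-deleted tumours 1, 2 and 5 were below every wild-type tumour, and tumours 3 and 4 of that group were within the wild-type range. The log2 fold change was -0.31 (SE 0.29, adjusted p = 0.794 in edgeR), -0.13 without labelled-deleted tumour 1, -0.17 without wild-type tumour 2 and -0.50 without labelled-deleted tumour 4. With labelled-deleted tumours 1 and 2 removed it was -0.00744.

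**Figure D2:**
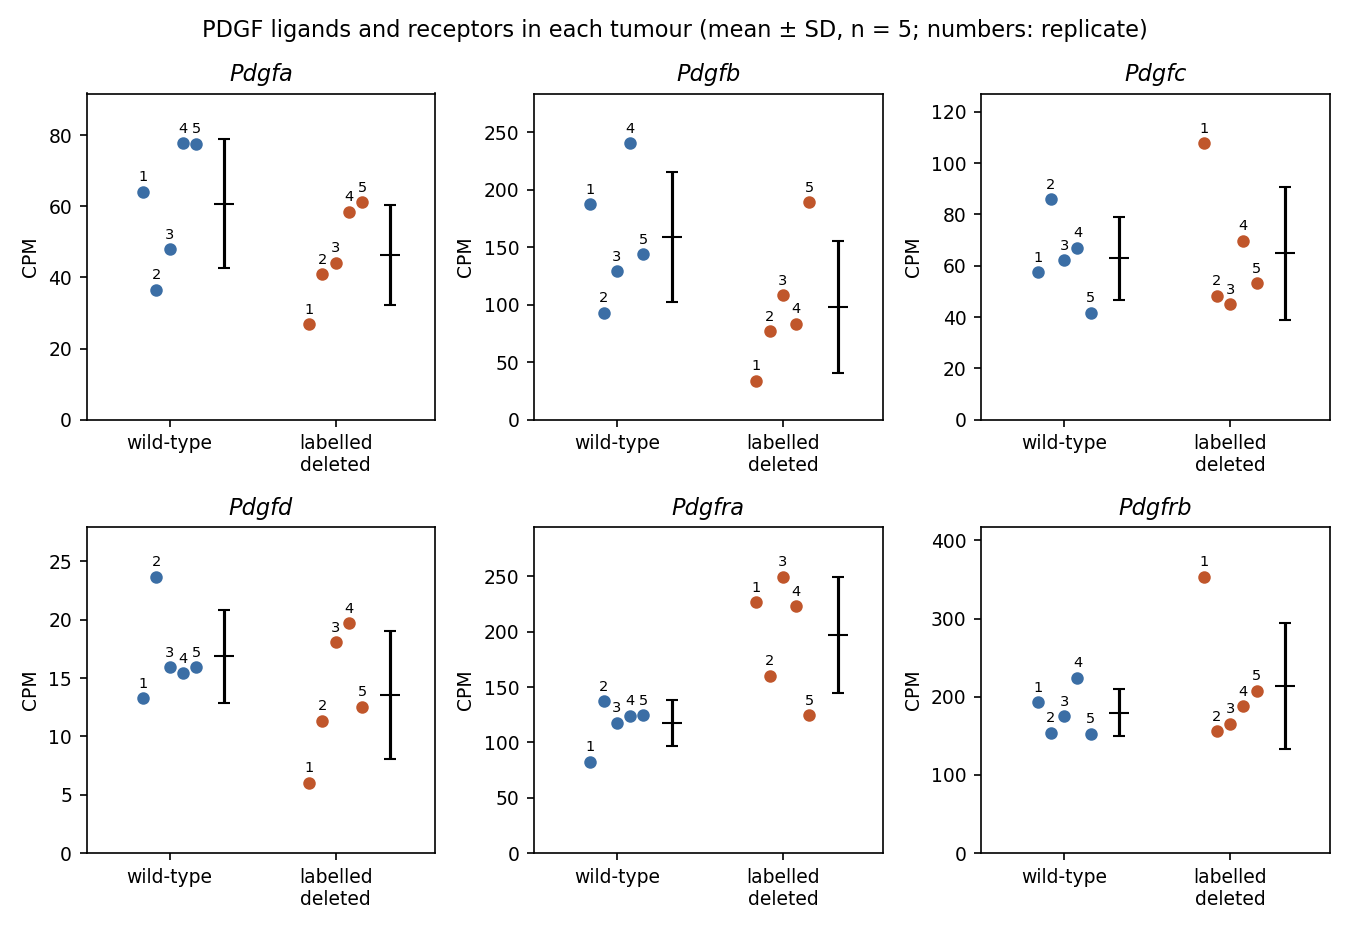
CPM of each gene in each tumour, with replicate numbers beside the points and the mean ± SD of each group of 5 at the right. Of the labelled-deleted tumours, 4 of 5 lie above every wild-type tumour for Pdgfra, and labelled-deleted tumour 1 is the lowest library for Pdgfa, Pdgfb and Pdgfd and the highest for Pdgfc and Pdgfrb.

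The balance of Pdgfra to Pdgfrb was taken within each tumour as the log2 ratio of their CPM, in which gene length cancels between groups. Wild-type tumours had ratios of 0.427, 0.891, 0.674, 0.553 and 0.816, so the reads of Pdgfrb outnumbered those of Pdgfra in 5 of 5. Labelled-deleted tumours had ratios of 0.642, 1.03, 1.51, 1.19 and 0.599, above 1 in tumours 2, 3 and 4. Tumours 1 and 5 of that group lay within the wild-type range. Per kilobase of merged exons the ratio ran from 0.234 to 0.824, with Pdgfra the lower receptor in 10 of 10 tumours. Per kilobase of the longest transcript it was the lower one in 9 of 10, and the ratio in labelled-deleted tumour 3 was 1.197.

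The mean log2 ratio was -0.62 ± 0.43 in wild-type and -0.10 ± 0.57 in labelled-deleted tumours (SD, n = 5). The difference of 0.52 did not exceed the spread between tumours (exact two-sided permutation test over all assignments of 5 against 5, p = 0.143, adjusted over 3 balances 0.226, smallest possible 0.00794). It ran from 0.35 to 0.68 when 1 library was left out, the lowest without labelled-deleted tumour 3. The libraries that made the ratio low in the labelled-deleted group did so in different ways. Labelled-deleted tumour 1 was high in both receptors, and labelled-deleted tumour 5 was at the wild-type level of Pdgfra.

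The differences in the 2 ligand balances were also within the spread between tumours. The log2 ratio of Pdgfa to Pdgfb was -1.37 ± 0.29 in wild-type and -0.93 ± 0.54 in labelled-deleted tumours (SD, n = 5), a difference of 0.43 (exact permutation test, p = 0.151, adjusted 0.226). Pdgfb was the more abundant of this pair in CPM in every tumour. The difference of that balance was 0.28 without labelled-deleted tumour 1. The log2 ratio of Pdgfc to Pdgfd was 1.88 ± 0.30 in wild-type and 2.28 ± 1.08 in labelled-deleted tumours, a difference of 0.40 (exact permutation test, p = 0.643, adjusted 0.643). In labelled-deleted tumour 1 Pdgfc held 17.8 times the CPM of Pdgfd, against 2.49 to 4.34 times in the other 9, and without it the difference was -0.06.

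**Figure D3:**
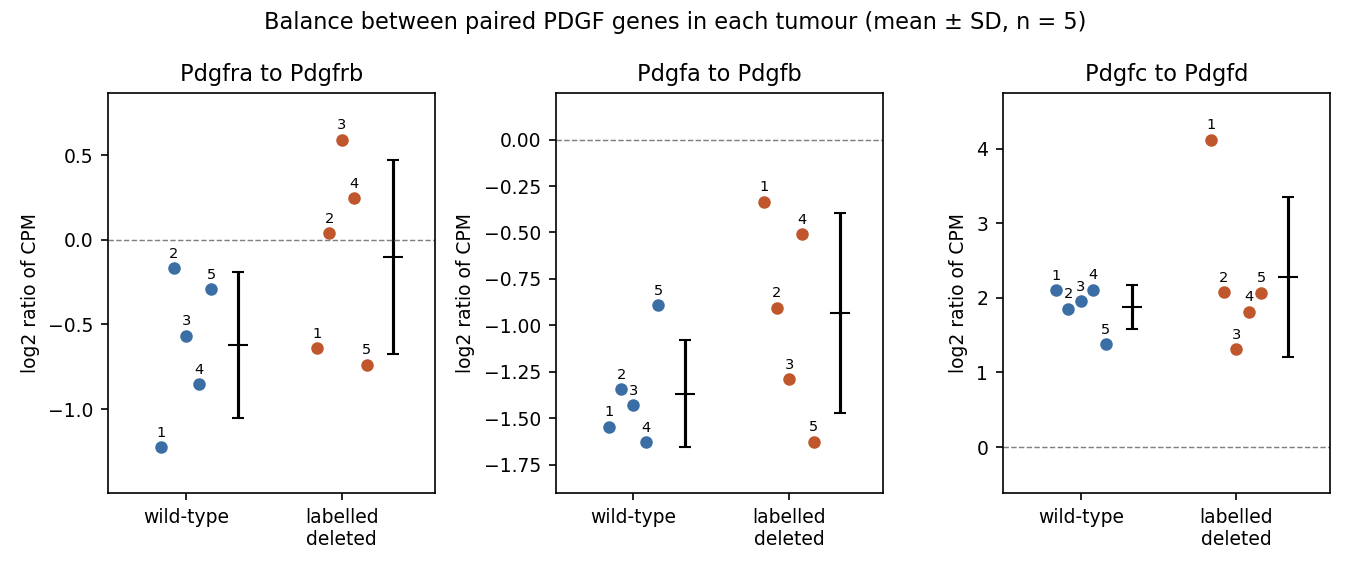
Log2 ratio of CPM for 3 pairs of PDGF genes in each tumour, with replicate numbers and the mean ± SD of each group of 5; the dashed line marks equal CPM. For Pdgfra to Pdgfrb, labelled-deleted tumours 2, 3 and 4 lie above the line and all wild-type tumours below it.

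Among the 15 pairs of members, 1 varied together past the threshold over the 10 tumours. Pdgfa and Pdgfb had a Pearson r of 0.86 (permutation p = 0.00139, adjusted over 15 pairs 0.0208) and a Spearman rho of 0.85 (permutation p = 0.00283, adjusted 0.0424). The r was 0.74 without labelled-deleted tumour 1 (exact permutation, adjusted p = 0.250). The rho was then 0.80 (exact permutation p = 0.0138, adjusted 0.207). Without labelled-deleted tumour 1 and wild-type tumour 4, the 2 tumours farthest from the median of Pdgfa, the r was 0.65 (exact permutation p = 0.0864). The pair did not pass without those tumours, in tests that also held fewer tumours. With each group centred on its own mean it was still 1 of 15 pairs that passed.

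Pdgfb and Pdgfra had a Pearson r of -0.70 (permutation p = 0.0214) and a Spearman rho of -0.73 (permutation p = 0.0198), and neither passed over the 15 pairs (adjusted 0.118 and 0.149). The r was -0.69 without labelled-deleted tumour 1 and wild-type tumour 4 (exact permutation p = 0.0568). The 2 receptors, Pdgfra and Pdgfrb, had a Pearson r of 0.24 (permutation p = 0.521, adjusted 0.599) and a Spearman rho of -0.13 (permutation p = 0.734). That r was -0.18 without labelled-deleted tumours 1 and 3 (exact permutation p = 0.686), so its sign rests on those tumours.

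The members were also set beside scores of 6 marker lists, which gives 36 relations, of which 6 passed by Pearson r and 0 by Spearman rho. Pdgfb had an r of 0.89 with the pericyte score (permutation p = 0.00101, adjusted 0.0198, rho 0.79 with permutation p = 0.00909). With the macrophage score Pdgfb had an r of 0.85 (permutation p = 0.0011, adjusted 0.0198, rho 0.88 with permutation p = 0.00179). With the endothelial score it had an r of 0.87 (permutation p = 0.00264, adjusted 0.0317, rho 0.71 with permutation p = 0.0267). Of the 6 scores, these 3 had the highest r with Pdgfb, and the epithelial score followed with 0.80 (permutation p = 0.0122, adjusted 0.0626, rho 0.45 with permutation p = 0.191).

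Pdgfa had an r of 0.79 with the pericyte score (permutation p = 0.00555, adjusted 0.0354, rho 0.67 with permutation p = 0.0386). It had an r of 0.80 with the macrophage score (permutation p = 0.0059, adjusted 0.0354, rho 0.83 with permutation p = 0.00455). Pdgfc had an r of -0.80 with the smooth muscle score (permutation p = 0.00449, adjusted 0.0354, rho -0.66 with permutation p = 0.0435). With labelled-deleted tumour 1 left out, 0 of the 36 relations passed. Pdgfb with the macrophage score had an r of 0.86 without it (exact permutation, adjusted p = 0.143), and the other 5 had absolute values from 0.59 for Pdgfa with the pericyte score to 0.74 for Pdgfa with the macrophage score. Over all 10 tumours with each group centred on its own mean, 4 relations passed by Pearson r and 1 by Spearman rho.

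Without the 2 tumours farthest from the median of the PDGF gene, the r of Pdgfb was 0.66 with the pericyte score (exact permutation p = 0.0847), 0.79 with the macrophage score (exact permutation p = 0.0206) and 0.73 with the endothelial score (exact permutation p = 0.0496). For Pdgfa it was 0.49 with the pericyte score (exact permutation p = 0.229) and 0.65 with the macrophage score (exact permutation p = 0.0852), and for Pdgfc -0.74 with the smooth muscle score (exact permutation p = 0.0359). Those p-values are not adjusted.

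**Figure D4:**
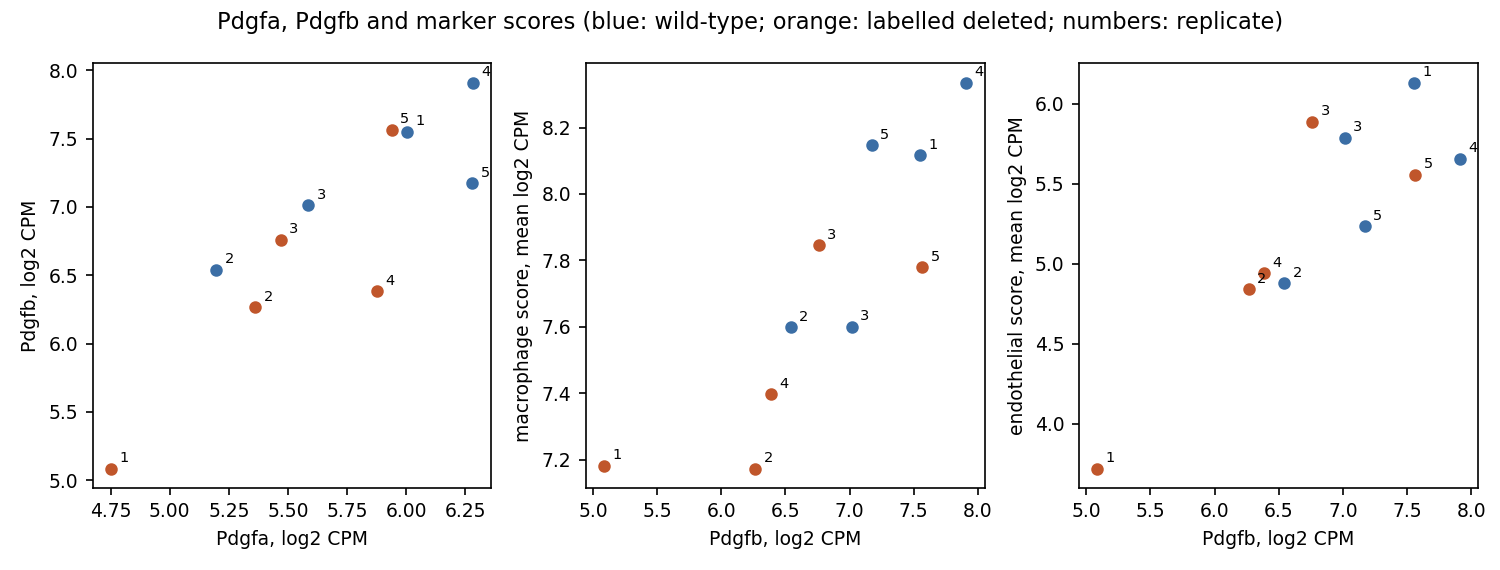
Log2 CPM of Pdgfa against Pdgfb, and of Pdgfb against the macrophage and endothelial scores (mean log2 CPM of the markers), in wild-type (blue) and labelled-deleted (orange) tumours with replicate numbers. Labelled-deleted tumour 1 lies at the lower left of all 3 panels; the Pearson r over 10 tumours is 0.86, 0.85 and 0.87.

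**Figure D5:**
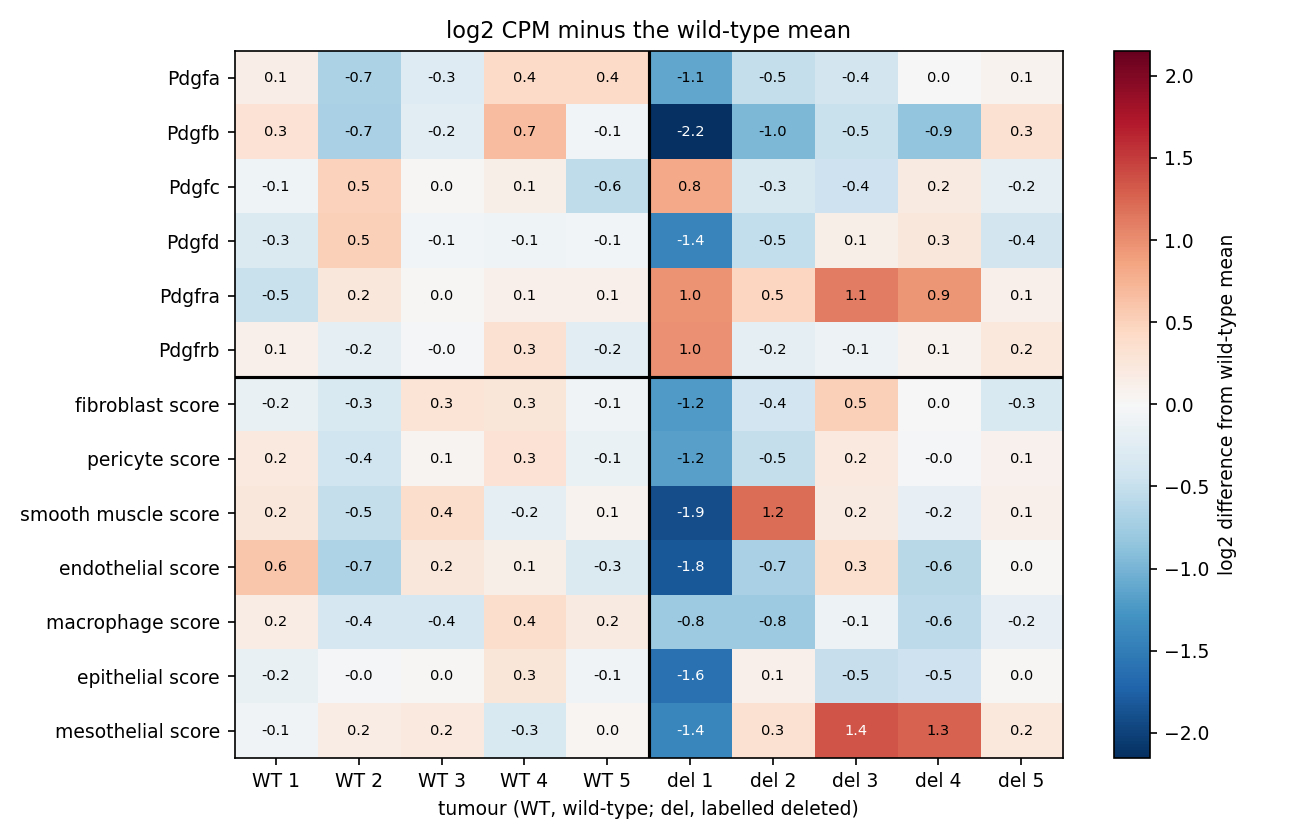
Log2 CPM of the 6 genes, and mean log2 CPM of 7 marker lists, in each tumour as the difference from the wild-type mean. Labelled-deleted tumour 1 has the lowest Pdgfb (-2.15) together with the highest Pdgfrb (0.99), and Pdgfra is above the wild-type mean in all 5 labelled-deleted tumours, by 0.11 to 1.11. Wild-type tumours 2, 3, 4 and 5 also lie above that mean for Pdgfra, by 0.03 to 0.25, and wild-type tumour 1 is at -0.49.

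As a description, the 3 genes with the highest Pearson r to each member over the 10 tumours were listed from all genes tested. Pdgfb was closest to Itgb6, an integrin subunit of epithelial cells, with an r of 0.98, and to Tifab and Enho with 0.97 each. Pdgfra was closest to Bicd1, an adaptor of the dynein motor, at 0.96, to 9330162G02Rik at 0.96 and to Nudt6 at 0.93, and these were 0.96, 0.98 and 0.95 over 9 tumours without labelled-deleted tumour 1. Pdgfrb was closest to the DNA repair gene Ercc1 and to 2700081O15Rik at 0.97 each and to the semaphorin Sema4c at 0.95, and these were 0.90, 0.89 and 0.82 without that tumour. Pdgfa was closest to Gm47428 (0.94), Ct55 (0.93) and Rnf180 (0.92). Pdgfc was closest to Septin10, Prpf19 and Ptpn9 (0.93 to 0.94), and Pdgfd to the cytokine gene Ctf1 (0.98), Ambp (0.97) and the lipoxygenase gene Alox5 (0.96). None of the fixed marker genes of fibroblasts or pericytes was among these 18.

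Of 11 genes that process or bind PDGF ligands, 0 passed, 2 were nominally higher and 9 lower, with a median log2 fold change of -0.10 against 0.03 over all genes. Furin, the convertase that cuts PDGF-A and PDGF-B, was at 306 ± 39.8 CPM in wild-type tumours, with a log2 fold change of -0.08 (SE 0.12). The related convertases Pcsk5, Pcsk6 and Pcsk7 were at -0.07 (SE 0.45), -0.44 (SE 0.23) and -0.10 (SE 0.07). The tissue plasminogen activator Plat, which activates PDGF-C, was at -0.20 (SE 0.29).

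For the activators of PDGF-D, matriptase (St14) was at -0.36 (SE 0.27) and urokinase (Plau) at 0.76 (SE 0.53). Plau reached 539 and 357 CPM in labelled-deleted tumours 1 and 4, against 80.2 to 254 CPM in the other 8. The matrix protein Sparc, which binds PDGF-B, was at -0.42 (SE 0.24). The co-receptors Nrp1 and Lrp1 were at -0.07 (SE 0.29) and 0.12 (SE 0.19). Pdgfrl, a receptor-like gene without a kinase domain, was at -0.76 (SE 0.29, unadjusted p = 0.0249, adjusted p = 0.759 in edgeR). It held 76.4, 64.6, 55.7, 68.4 and 45.7 CPM in wild-type tumours and 13.7, 36.5, 41.0, 49.1 and 42.8 CPM in labelled-deleted tumours, so that only labelled-deleted tumour 4 reached above the lowest wild-type tumour.

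Of 18 genes that carry the receptor signal, 0 passed, 11 were nominally higher and 7 lower, with a median of 0.04. The phosphatase Ptpn11 (SHP2) was at 0.05 (SE 0.07), the phosphoinositide 3-kinase subunit Pik3r1 at 0.10 (SE 0.15) and the phospholipase Plcg1 at 0.04 (SE 0.11). An unadjusted p under 0.05 was found for 1 of the 18, where 5.93% of all genes lay under that value. This was Pik3ca, a catalytic subunit of the same kinase, at 0.24 (SE 0.08, unadjusted p = 0.0135, adjusted p = 0.759 in edgeR). It was 71.3 to 77.8 CPM in wild-type and 74.4 to 95.2 CPM in labelled-deleted tumours, so the groups overlapped. Of 8 negative regulators 0 passed and 6 were nominally higher, with a median of 0.05. That count was 3 of 8 without labelled-deleted tumour 1, 3 of 8 without labelled-deleted tumour 3 and 3 of 8 without wild-type tumour 2, each with a median just below 0. The ubiquitin ligase Cbl was at 0.01 (SE 0.10) and the receptor phosphatase Ptprj at -0.24 (SE 0.21). The phosphatase Ptpn1 was at -0.30 (SE 0.13, unadjusted p = 0.0485, adjusted p = 0.759 in edgeR).

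Immediate early genes that PDGF induces in cultured fibroblasts were nominally higher for 12 of 13, where 55.1% of all genes were, with a median of 0.16, and 0 passed. Fos was at 0.82 (SE 0.74) and held 370 CPM in labelled-deleted tumour 3 against 24.3 to 101 CPM elsewhere. Egr1 was at 0.86 (SE 0.50), with 305 and 289 CPM in labelled-deleted tumours 1 and 3 and 46.4 to 164 CPM in the others. Myc was at 0.16 (SE 0.12) and the hyaluronan synthase Has2 at 0.32 (SE 0.49). The list's lowest p-values were those of Fosl1, at 1.09 (SE 0.44, unadjusted p = 0.0315), and Fosb, at 1.75 (SE 0.78, unadjusted p = 0.0495), each with an adjusted p of 0.759 in edgeR. Fosb held 153 CPM in labelled-deleted tumour 3 against 6.92 to 28.0 CPM elsewhere. The count was 10 of 13 without labelled-deleted tumour 1, 9 without wild-type tumour 2 and 7 without labelled-deleted tumour 3, where the median was 0.08. With all tumours kept, it was 9 of 13 with limma-voom and 7 of 13 with limma-voom and sample quality weights, where the median was 0.04.

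Of 15 relatives of the PDGF family, 8 were nominally higher and 0 passed, with a median of 0.11. Among the other receptors of the same kinase class, Kit was at -0.69 (SE 0.43), the macrophage receptor Csf1r at -0.64 (SE 0.33) and Flt3 at 0.18 (SE 0.61). Their ligands Kitl and Csf1 were at -0.01 (SE 0.29) and 0.11 (SE 0.20). Vegfa, a related vascular growth factor, was at -0.17 (SE 0.23), with its receptors Kdr at -0.43 (SE 0.42) and Flt1 at 0.41 (SE 0.15, unadjusted p = 0.0195, adjusted p = 0.759 in edgeR). The list stood at 7 of 15 with a median of -0.02 without labelled-deleted tumour 1, and at 6 of 15 with -0.09 without labelled-deleted tumour 3.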

How the data were processed

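The 6 genes, the gene lists and the rules for naming other genes were chosen with earlier results of these data known. The authors deposited estimated counts per gene for all 10 libraries, and 1 file per tumour of normalized values on a log2 scale, whose transformation is not named. RSEM 1.3.3, HISAT2 2.2.1, DESeq2 1.32.0, FastQC 0.11.9 and bcl2fastq 2.0 are named, with build mm10, per the submitters' processing notes. Annotation release and strand setting: not given in the sources used here. These log2 values served 1 alternative. Groups come from the sample titles. Nothing says whether tumours came from separate litters, so p-values measure the spread between these tumours. Wild-type tumours 2 and 3 share the number in their tumour ID, as do wild-type tumours 4 and 5. The 5 labelled-deleted tumours have different numbers, and the main tests treated all 10 tumours as independent.

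Estimated counts were rounded. filterByExpr of edgeR 4.0.16 (minimum count 10) kept 16565 of 55487 genes. Libraries were scaled by TMM and compared with the robust quasi-likelihood F test, with Benjamini-Hochberg adjustment over all genes. SE comes from the F statistic, and a positive log2 fold change means higher in labelled-deleted tumours. A prior count of 2 was added for log2 CPM. The common biological coefficient of variation was 0.355. Total counts were at least 10159891 per library. Pairs of libraries within a group had a chi-square per degree of freedom of 23.8 to 132.5, above what counting noise alone gives. That value covers the genes together, and low-count genes were not looked at apart. Exon lengths and coordinates are from GENCODE M21 (GRCm38). Balances used all assignments of 5 against 5, and correlations over 10 tumours used 100000 resamples. Named genes were Grem1, the 6 members, their 3 most alike genes, the processing list, chosen members of the other pathway lists, and markers. Prss2, Pik3ca, Ptpn1, Fosl1 and Fosb were chosen after their values were seen. Alternatives were DESeq2 1.42.0, limma 3.58.1, other scalings, filters and dispersions, blocks, and leaving libraries out. R was 4.3.3 and Python 3.11.15.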

Additional observations from a re-analysis of the deposited data

Results flagged for a closer look

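The log2 ratio of Pdgfc to Pdgfd in labelled-deleted tumour 1 was 4.12, and the next highest of its group was 2.08. Its gap to that tumour, divided by the range of the group, was above Dixon's 95% critical value for 5 samples. This was 1 of 18 groups of values looked at, and chance flags about 1 group in 20. In that tumour Pdgfc was the highest and Pdgfd the lowest of all 10 libraries.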

How the results depend on the processing

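No member passed an adjusted p of 0.05 under any of the 23 alternatives. DESeq2 called 7 genes over the whole table, and every other alternative called 0. Pdgfra, Pdgfa, Pdgfb and Pdgfd kept the direction of their log2 fold change under all of them. For Pdgfd the value was only -0.00744 without labelled-deleted tumours 1 and 2, which hardly gives a direction. Leaving out 1 library in turn gave ranges of 0.64 to 0.87 for Pdgfra, -0.54 to -0.25 for Pdgfa, -1.07 to -0.48 for Pdgfb, -0.50 to -0.13 for Pdgfd, -0.22 to 0.17 for Pdgfc, -0.00517 to 0.35 for Pdgfrb and 0.25 to 1.602 for Grem1. Pdgfc turned to -0.00658 with limma-voom, -0.0307 with sample quality weights and -0.17 without labelled-deleted tumours 1 and 2. It turned to -0.33 with the number in the labels' tumour ID, whose meaning they do not give, as a block. The cause of these turns was not tested. Labelled-deleted tumours 1 and 4 share that number with no other tumour, so under this block they do not bear on the group difference. Pdgfrb turned to -0.0289 with the tumour ID block, and Grem1 to -0.40 without labelled-deleted tumours 1 and 2.

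No balance passed under any alternative. The replicate block could not give a pass, because the smallest p of its sign-flip permutation test is 0.0625. Without labelled-deleted tumours 1 and 2 the smallest p of the exact permutation test was 0.0357 before adjustment. The ranges on leaving out 1 library were 0.35 to 0.68 for Pdgfra to Pdgfrb, 0.28 to 0.61 for Pdgfa to Pdgfb and -0.0609 to 0.64 for Pdgfc to Pdgfd, which was -0.15 without labelled-deleted tumours 1 and 2. Without labelled-deleted tumour 1, and without tumours 1 and 2 of that group, 0 of 15 member pairs and 0 of 36 marker relations passed, with fewer tumours in the test. Same-numbered tumours of the 2 groups had correlations of their deviations from -0.02 to 0.39, and differently numbered tumours from -0.47 to 0.43. The number in the tumour ID was the same in both groups for replicates 3 and 5, and it differed for replicates 1, 2 and 4. These values do not settle whether the replicate numbers pair the tumours. With the replicate block 0 genes passed, and the log2 fold changes were 0.72 for Pdgfra, 0.20 for Pdgfrb, -0.80 for Pdgfb, -0.39 for Pdgfa, -0.39 for Pdgfd and 0.00 for Pdgfc. Under the replicate block the Pdgfra to Pdgfrb difference was still 0.52 (exact sign-flip permutation p = 0.188, smallest possible 0.0625).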
